A study of Rattus norvegicus with 16 samples.

Results

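The liver response of rats to 4-methyl-UAB30, labelled MeUAB30 on the arrays, was described gene by gene against untreated liver. The animals were female Sprague-Dawley rats whose livers were taken at 5 weeks of age. The MeUAB30 group ate a Teklad mash (4%) with the compound at 200 ppm for 7 days, and the Control group ate the same mash with nothing added; the labels give no feeding period for it. Each group was represented by 4 whole-transcript exon arrays. On the same series 4 arrays each came from rats fed UAB30 at 200 ppm or Targretin (bexarotene) at 150 ppm for 7 days, which brought the total to 16. The labels do not say that each array came from its own rat, so the p-values measure the spread between arrays, which may be technical in part. Each diet was a single preparation as far as the labels say, and preparation and compound cannot be told apart. Whole liver holds several cell types, and fewer cells of a type cannot be told apart from less RNA per cell. Of 14839 genes named on the array, 12156 were bright enough to be tested, with a median of 6 probe sets each; a gene entered if at least 1 of its probe sets averaged a log2 intensity of 6.01 or more over the 16 arrays.

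MeUAB30 carries, as its name says, a methyl group that UAB30 lacks, and both belong to the rexinoids, agonists of the retinoid X receptor (RXR). RXR is a nuclear receptor that sits on DNA mostly as the partner of another one, such as the retinoic acid, liver X, farnesoid X or peroxisome proliferator-activated receptor, and in several of these pairs an RXR ligand can turn genes on without the partner's own ligand. In liver those partners govern how retinoids are stored and destroyed, how cholesterol becomes bile acid, and how fat and sugar are used. Retinoic acid is removed by hydroxylases of the Cyp26 family, whose genes retinoic acid receptors switch on in turn.

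Because Cyp26a1 carried the largest increase of all tested genes, its promoter is shown beside that of Rarb, which encodes retinoic acid receptor beta and is, with Cyp26a1, a textbook target of the RAR and RXR pair. Each window runs from 250 bases before to 50 bases after the RefSeq start of the gene (assembly GRCr8), 5′ to 3′ on the gene's strand, and the capitals mark the half-sites of a direct repeat with 5 bases between them. The Cyp26a1 window lies at chr1:244883572-244883871 on the plus strand and the Rarb window at chr15:11336142-11336441, also on the plus strand.
Cyp26a1: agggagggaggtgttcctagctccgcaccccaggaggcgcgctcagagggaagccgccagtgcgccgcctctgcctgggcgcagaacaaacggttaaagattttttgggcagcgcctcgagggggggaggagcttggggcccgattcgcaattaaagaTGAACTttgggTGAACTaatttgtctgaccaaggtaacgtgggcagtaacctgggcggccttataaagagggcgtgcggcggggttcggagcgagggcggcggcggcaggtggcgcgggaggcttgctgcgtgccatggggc
Rarb: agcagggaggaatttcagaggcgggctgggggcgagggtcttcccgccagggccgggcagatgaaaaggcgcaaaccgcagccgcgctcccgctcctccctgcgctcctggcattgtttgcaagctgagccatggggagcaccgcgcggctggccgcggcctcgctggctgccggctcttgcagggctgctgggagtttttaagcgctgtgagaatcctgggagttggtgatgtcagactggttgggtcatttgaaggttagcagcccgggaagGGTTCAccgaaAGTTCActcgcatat

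The repeat in Cyp26a1 reads on the opposite strand and spans bases -92 to -76 from the start, and the repeat in Rarb reads on the gene's strand at bases 25 to 41. The half-sites searched for were AGGTCA, the textbook form, together with its variants AGTTCA as well as GGGTCA and also the form GGTTCA, in any pair with 1, 2, 4 or 5 bases between them, on both strands. A repeat of any of these spacings stood in 0.86% of 27457 promoter windows and in 0.412% of the 9958 windows of tested genes. Among named genes 118 had a window and 4 of them held a repeat, the others being Fabp2 and Acot8, each with a spacing of 1. In Fabp2, an intestinal-type fatty acid-binding protein, it read TGAACTtTGAACT, and in Acot8, a peroxisomal thioesterase, GGGTCAgAGGTCA. The share was 0.729% of 823 windows of genes that rose and 0 of 196 windows of genes that fell; a match describes the letters of the window and shows no binding of a receptor there.

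In the main fit MeUAB30 changed more genes upward than downward, a balance that depended on how differences between arrays were handled, as given below. Of the 12156 genes 1202 passed (9.89%; limma, Benjamini-Hochberg adjusted p under 0.05, the sense in which rose, fell and passed are used throughout), with 958 higher (7.88%) and 244 lower (2.01%). Most changes were modest: 192 of the called genes changed by 2-fold or more, 150 of them upward, and 16 by 4-fold or more, 11 upward. The middle of the distribution hardly moved, with a median log2 change of 0.06 over all genes and a range from -0.44 at the 5th to 0.68 at the 95th percentile. In 1756 genes (14.4%) the 4 MeUAB30 arrays lay wholly above or wholly below the 4 Control arrays, above in 1418 and below in 338. Within called genes 10538 of 10868 kept probe sets (97.0%) shifted in the direction of their gene. Gene values were made from these same probe sets, and 65 called genes were read by only 1. Such agreement was therefore largely fixed in advance and is not read as a result.

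**Figure D1:**
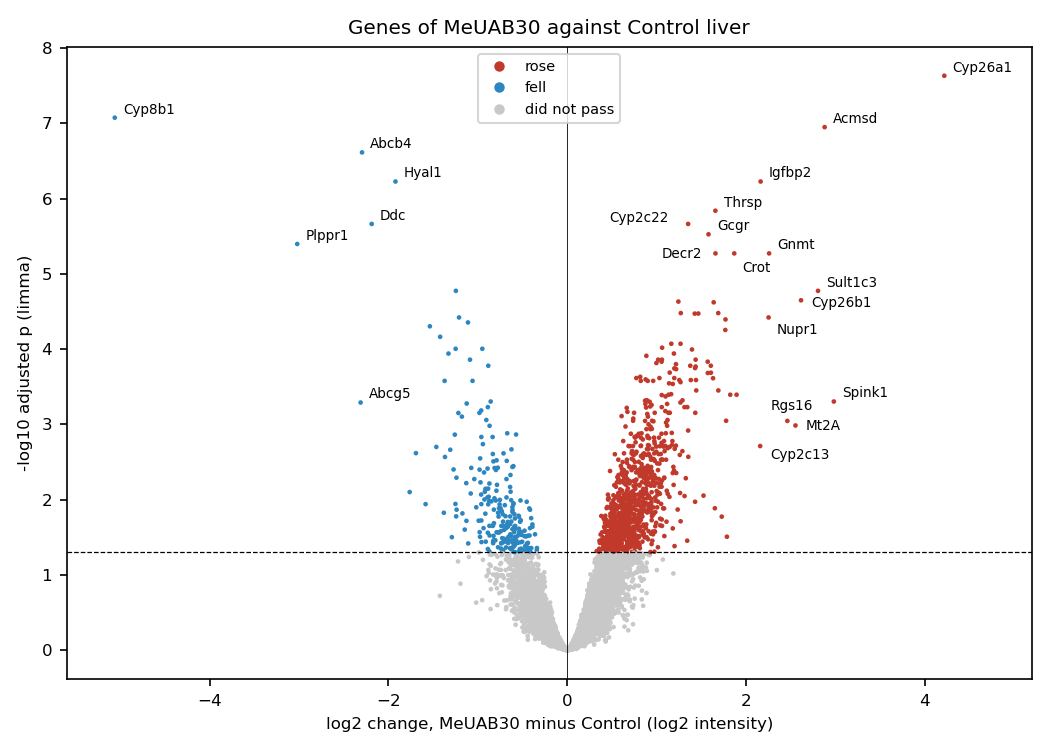
Log2 change of each of the 12156 genes (x axis, MeUAB30 minus Control, log2 intensity) against its adjusted p on a -log10 scale (y axis); each point is a gene, red for higher and blue for lower among those that passed, and the dashed line is the threshold of 0.05. Red points outnumber blue ones, 958 to 244, while Cyp8b1 at -5.06 has the largest change in either direction.

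The share of genes that rose was uneven across the array. When genes were ranked by Control level and cut into 4 equal bins, 14.5% rose and 5.26% fell in the brightest bin, against 4.11% and 0.296% in the dimmest. Genes read by 4 to 9 probe sets rose in 12.5% of cases, those read by 10 or more in 7.04% and those read by 1 to 3 in 3.72%. The background for the gene lists below is the share over all genes, 9.89% called, 7.88% higher and 2.01% lower. No list was matched to genes of like brightness. Single arrays weighed on the number called. It was 634 when Control 4 was left out and 687, 748 and 785 when MeUAB30 3, 2 or 4 was, while omission of Control 3 changed the share of higher genes from 79.7% to 62.9%. MeUAB30 1 and Control 3, with UAB30 3 and Targretin 2, had the narrowest intensity range of their groups (the 99th percentile over the median as a log2 ratio, 6.09 and 5.997 against 6.10 to 6.22 on the other arrays of these 2 groups). Omission of those 4 arrays gave 2446 called genes, 61.3% of them higher, and with the range as a covariate 3020 were called, 46.8% of them higher, so the predominance of increases depended on how that range was treated.

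Of the 36 pathway lists, retinoic acid breakdown had the largest median change. It holds only 4 genes, chosen with earlier results of these data known, so its rank is not read as a result. Of its 4 tested members 3 rose, against 7.88% of all genes, and none fell, with a median log2 change of 1.98. Cyp26a1, the main hepatic hydroxylase of retinoic acid, read 12.86, 13.03, 13.02 and 12.9 on the MeUAB30 arrays and 8.78, 8.73, 8.16 and 9.25 on the Control arrays (log2 intensity, as all array values here). Every MeUAB30 array was far above every Control array, and the MeUAB30 arrays differed among themselves by far less than the Controls did. The gene rose 18.6-fold (log2 change 4.22, SE 0.24, adjusted p = 2.33e-08), and all 8 of its probe sets were higher.

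Cyp26b1, the second retinoic acid hydroxylase, read 7.67, 9.06, 9.06 and 9.64 with MeUAB30 and 6.49, 6.2, 6.12 and 6.15 in Control. MeUAB30 1 was the lowest of its group and still above every Control array, and the Control values sat just over the brightness threshold, so the size of 6.13-fold is uncertain (SE 0.28, adjusted p = 2.24e-05). Cyp2c22, a rat P450 that also oxidises retinoic acid, rose 2.55-fold from a bright Control level, between 12.0 and 12.35, to 13.37 to 13.59 (adjusted p = 2.17e-06). In the remaining member, Cyp26c1, the change of 0.29 (log2) was within the error (adjusted p = 0.359).

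Of 17 genes of retinol storage, transport and oxidation 1 rose and none fell, a share of 5.88% against 9.89% of all genes. Lrat, which esterifies retinol for storage and marks stellate cells, rose 1.79-fold from 8.51 to 9.04 in Control to 9.46 to 9.98 with MeUAB30 (adjusted p = 0.00785). Rarb read 9.08, 9.63, 9.62 and 9.69 with MeUAB30 and 9.28, 9.26, 8.95 and 9.32 in Control. The groups overlapped through MeUAB30 1, and the log2 change of 0.30 did not pass (adjusted p = 0.215), though without MeUAB30 1 it was 0.44 and did (adjusted p = 0.0383). The receptors Rxra and Rara had log2 changes of 0.02 and 0.19 (adjusted p = 0.934 and 0.446).

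**Figure D2:**
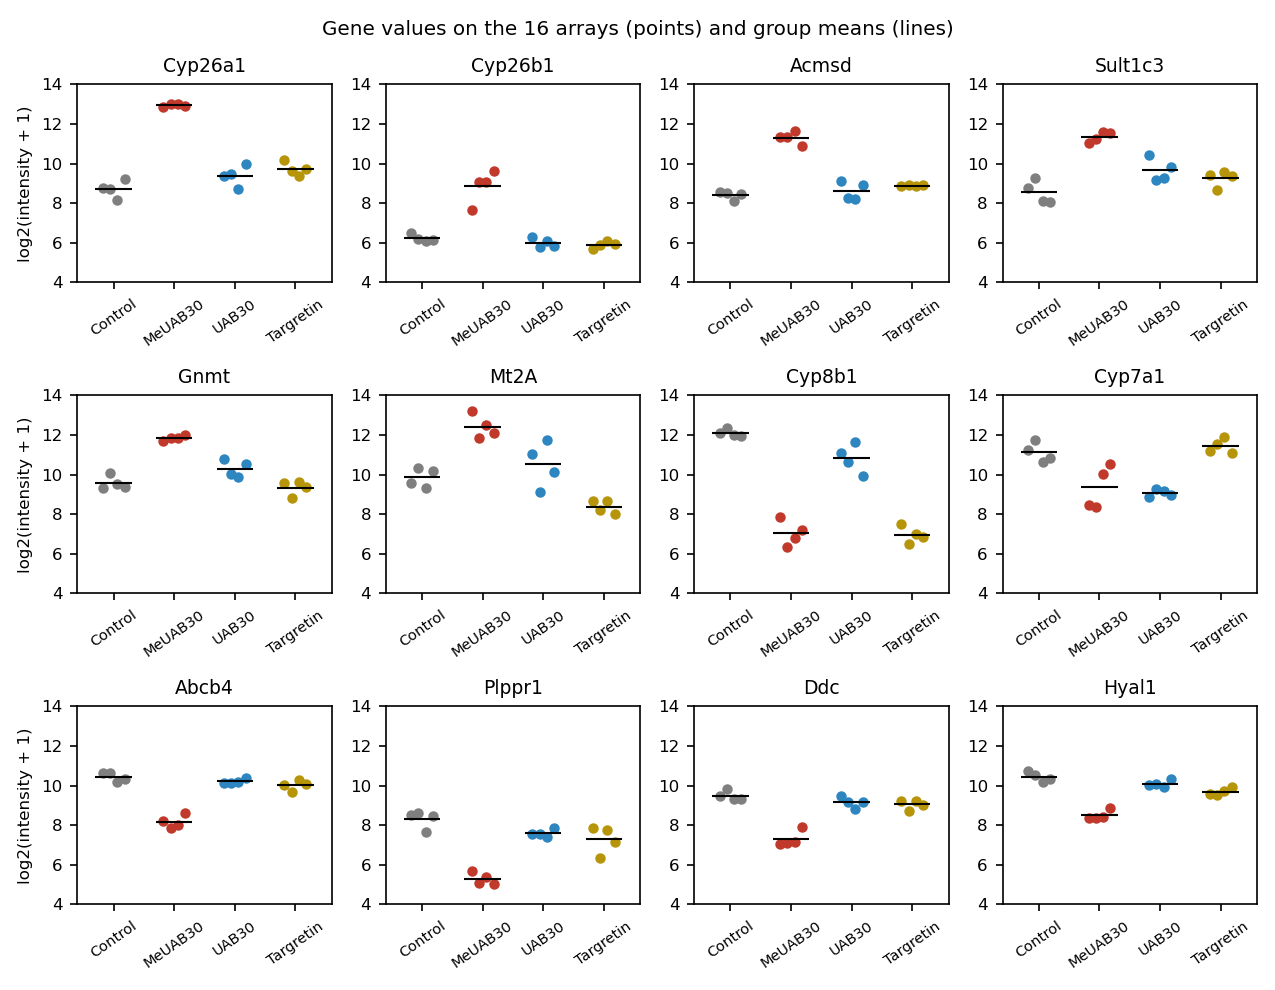
Gene values on every array (y axis, log2 of intensity plus 1) for 12 genes, in the 4 diets; points are arrays and lines are group means. Cyp26a1, Cyp26b1, Acmsd, Sult1c3, Gnmt and Mt2A stand above Control on all 4 MeUAB30 arrays, and Cyp8b1, Cyp7a1, Abcb4, Plppr1, Ddc and Hyal1 stand below it on all 4.

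Bile acid synthesis genes held the largest decrease of all tested genes. Of 16 members 4 fell and 2 rose (37.5% called, against 9.89% of all genes), with a median of 0.09. Cyp8b1, the sterol 12-alpha-hydroxylase that makes cholic acid possible, read 7.87, 6.35, 6.78 and 7.21 with MeUAB30 and 12.09, 12.35, 12.03 and 11.97 in Control. The groups were more than 4 log2 units apart at their closest, and Cyp8b1 fell 33.4-fold (log2 change -5.06, SE 0.33, adjusted p = 8.42e-08) on both of its 2 probe sets. Cyp7a1, the rate-limiting enzyme of the pathway, read 8.45, 8.38, 10.04 and 10.56 with MeUAB30 and 11.23, 11.77, 10.65 and 10.85 in Control. MeUAB30 3 and 4 came close to the lowest Control array without reaching it, and the 3.39-fold decrease carried a wide error (log2 SE 0.39, adjusted p = 0.0079).

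Acox2, the peroxisomal oxidase of bile acid side chains, fell 2.31-fold (10.07, 9.99, 10.14 and 10.5 against 11.28, 11.5, 11.29 and 11.48; adjusted p = 3.79e-05), and Akr1d1, the steroid 5-beta-reductase, fell by 0.49 (adjusted p = 0.0479). The increases were smaller. Amacr, the racemase of branched acyl-CoAs, increased by 0.58 in log2 terms (adjusted p = 0.0312) and Acot8 1.52-fold (adjusted p = 0.0253), and both lost their calls without any 1 of MeUAB30 2, 3 or 4 or Control 4, Acot8 also without Control 3 and Amacr also without Control 1 (adjusted p up to 0.0844 and 0.123). Nr0b2, the small heterodimer partner that represses Cyp7a1 and Cyp8b1, rose 2.63-fold, from 6.76 to 7.09 in Control to 7.95 to 8.8 (adjusted p = 0.000101). Nr1h4, the bile acid receptor FXR, did not pass (log2 change 0.35, adjusted p = 0.356). Nr5a2, a receptor that drives Cyp7a1 and Cyp8b1, fell 1.49-fold (adjusted p = 0.0379), but not when MeUAB30 1, 2 or 3 or Control 1, 2 or 4 was omitted (largest adjusted p 0.125).

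Of 16 bile and anion transport genes 2 rose and 2 fell (25% called, against 9.89% of all genes). Abcb4, which flips phosphatidylcholine into bile, read 8.24, 7.84, 8.0 and 8.6 with MeUAB30 and 10.64, 10.66, 10.19 and 10.36 in Control. All 28 of its probe sets were lower, and it fell 4.91-fold (SE 0.17, adjusted p = 2.43e-07). The drug efflux pump genes beside it in the same family, listed as Abcb1b and Abcb1, fell 2.12-fold and 2.90-fold (adjusted p = 0.000138 and 4.97e-05); probe sets of such close relatives can read more than 1 gene. Abcb11, the bile salt export pump, did not pass (log2 change -0.28, adjusted p = 0.179), except with array weights or the mean of probe sets (adjusted p = 0.030 and 0.025). The bile acid importer Slc10a1 rose 1.37-fold (adjusted p = 0.0264; not when MeUAB30 3 or 4 or Control 1 or 4 was omitted, largest adjusted p 0.0859), and the anion carrier Slc22a7 1.43-fold (adjusted p = 0.0489; not when MeUAB30 2, 3 or 4 or Control 1, 3 or 4 was omitted, largest 0.142).

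Among 16 genes of sterol efflux and transport 4 fell and 1 rose (31.2% called, against 9.89% of all genes). Abcg5, one subunit of the sterol pump into bile, read 6.08, 5.57, 5.69 and 5.8 with MeUAB30 and 8.32, 8.58, 7.89 and 7.6 in Control. Abcg8, its partner, read 6.04, 5.64, 5.79 and 5.4 against 7.82, 7.78, 7.27 and 6.77. Both groups were apart for both genes, and both MeUAB30 means lay under the brightness threshold, so Abcg5 was at least 4.19-fold and Abcg8 at least 2.62-fold lower when levels under the threshold are set to it (adjusted p = 0.000511 and 0.0024). Lipa, the lysosomal lipase that frees cholesterol from its esters, fell 1.81-fold (adjusted p = 0.000496), Stard5, a cholesterol carrier, fell by 0.58 (adjusted p = 0.0399), and Npc2, which hands cholesterol out of the lysosome, rose 1.70-fold (adjusted p = 0.00635).

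Of 20 cholesterol synthesis genes none rose (1 without Control 2) and 3 fell, a share of 15% called against 9.89% of all genes. Cyp51, the lanosterol demethylase, fell 1.69-fold, from 10.74 to 11.23 in Control to 10.06 to 10.53 (adjusted p = 0.0115). Idi1, the isopentenyl diphosphate isomerase, had overlapping arrays, with MeUAB30 4 at 9.55 beside Controls from 9.53 to 10.4, and fell by 1.11 (adjusted p = 0.038). The third was Msmo1, a sterol demethylating oxidase (-0.68, adjusted p = 0.043). The count was 1 without any 1 of MeUAB30 1, 2 or 3 or Control 1, 2 or 4, and 5 without MeUAB30 4; Idi1 was not called in the first 6 of these cases (adjusted p up to 0.133).

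Of 19 fatty acid synthesis genes 8 rose and 3 fell (57.9% called, against 9.89% of all genes), with a median of 0.52. Thrsp, a regulator of lipogenesis that thyroid hormone and carbohydrate induce, read 13.12, 13.2, 13.28 and 13.14 with MeUAB30 and 11.28, 11.55, 11.59 and 11.7 in Control. The MeUAB30 arrays were tightly bunched and clear of the Controls, and the gene rose 3.16-fold (adjusted p = 1.45e-06). Acaca, the acetyl-CoA carboxylase that commits carbon to fat, rose 2.29-fold with all 55 probe sets higher (adjusted p = 0.000242). The 3 that fell were the desaturases Fads1 (1.93-fold, adjusted p = 9.88e-05) and Fads2 (1.59-fold, adjusted p = 0.00131) and the elongase Elovl2 (log2 change -0.83, adjusted p = 0.00247), which are known from the synthesis of polyunsaturated fatty acids. Srebf1 and Pnpla3, lipogenic genes under liver X receptor control, changed by 0.52 and 0.81, short of the threshold (adjusted p = 0.194 and 0.0585). Pnpla3 passed under 5 of the 18 alternatives, omission of MeUAB30 1 among them (1.09, adjusted p = 0.00699).

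Peroxisomal fatty acid oxidation genes rose in 9 of 24 cases and 1, Acox2, fell (3 fell without Control 3). The share called was 41.7%, against 9.89% of all genes. Crot, which loads chain-shortened acyl groups onto carnitine for export to mitochondria, read 9.95, 10.18, 10.15 and 10.64 with MeUAB30 and 8.4, 8.52, 7.98 and 8.56 in Control. All 18 probe sets were higher and the gene rose 3.65-fold (adjusted p = 5.34e-06). In Decr2, which clears double bonds in the same organelle, a 3.16-fold increase was measured (10.28, 10.76, 10.65 and 10.7 against 9.07, 9.2, 8.69 and 8.8; adjusted p = 5.34e-06). Eci2, an enoyl-CoA isomerase, rose by 1.06 and Ech1, a dienoyl-CoA isomerase, by 1.10, the thiolase Acaa1b by 0.91 and the bifunctional enzyme Ehhadh by 0.44 (log2; adjusted p = 9.56e-05, 0.00131, 0.000995 and 0.0187). Ppara, the receptor that drives peroxisomal oxidation in rodents, changed by -0.58 and did not pass (adjusted p = 0.0736). It passed under 6 of the 18 alternatives, among them quantile normalization (-0.59, adjusted p = 0.0473) and omission of Control 3 (-0.74, adjusted p = 0.0234). Pdk4, Fgf21 and Cyp4a1, which Ppara is also known to regulate, had changes of 0.11, -0.15 and -0.12 (adjusted p = 0.717, 0.789 and 0.828). Fgf21 (6.0 to 6.89) and Cyp4a1 (6.05 to 7.15) were near the brightness threshold in both groups, where a decrease could hardly be seen. Over the alternatives the change of Cyp4a1 ran from -0.65 to 0.08.

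In mitochondria 10 of 30 genes of fatty acid oxidation and ketone bodies rose and 2 fell (40% called, against 9.89% of all genes). Acsm5 and Acsm3, which activate medium-chain fatty acids, rose: Acsm5 by 2.41-fold (adjusted p = 0.000511), and Acsm3, dim in Control, by at least 2.70-fold (adjusted p = 0.000893). The decreases were in the carnitine carrier Slc22a5 (1.63-fold, adjusted p = 0.033) and the arachidonate-activating Acsl4 (1.32-fold, adjusted p = 0.0438). Neither was stable: Slc22a5 failed the test when MeUAB30 1, 2 or 3 or Control 1, 2 or 4 was omitted, and Acsl4 when any of the 8 arrays but Control 3 was (largest adjusted p 0.0946 and 0.117). The count of 10 was 6 without any 1 of MeUAB30 3 or 4 or Control 1 or 4.

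In the main fit no listed gene of fat storage or fuel choice fell, where 2.01% of all genes fell and 7.88% rose. With the intensity range as a covariate 2 fell in each of these 2 lists. Of 23 genes of lipid droplets, uptake and lipases 4 rose, among them the droplet-fusing protein Cidec, 2.04-fold (9.3, 9.65, 9.58 and 9.79 against 8.8, 8.65, 8.31 and 8.43; adjusted p = 0.000242), and Fabp2, 2.25-fold on its only probe set (adjusted p = 0.00187). Of 21 genes of fuel switching and acyl-CoA thioesterases 4 rose, including the pyruvate dehydrogenase kinases Pdk1, 1.91-fold, and Pdk2, 1.52-fold (adjusted p = 0.00115 and 0.00355). Lipoprotein genes rose in 2 of 15 cases and fell in 1 (20% called, against 9.89% of all genes), each by under 1.5-fold. Lrp1, a remnant receptor, rose 1.36-fold (adjusted p = 0.0129, but 0.0531 with MeUAB30 2 omitted), Apoa2, of high-density lipoprotein, rose 1.44-fold (adjusted p = 0.0153, but up to 0.0546 with MeUAB30 2 or Control 4 omitted), and Apob, of very-low-density lipoprotein, fell 1.27-fold (adjusted p = 0.0469, but up to 0.145 with any array other than Control 3 omitted).

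Glycolysis and sugar use genes rose in 15 of 32 cases (46.9%, against 7.88% of all genes) and none fell, with a median of 0.42. Gpi, the glucose phosphate isomerase, read 10.55, 11.07, 10.98 and 10.77 with MeUAB30 and 9.81, 9.58, 9.32 and 9.58 in Control and rose 2.41-fold (adjusted p = 3.32e-05). Pdhb, a subunit of pyruvate dehydrogenase, rose 2.24-fold (adjusted p = 8.47e-05). In both genes the lowest MeUAB30 array was above the highest Control array. Genes of glucose production and glycogen rose in 8 of 31 cases and fell in 1 (29% called, against 9.89% of all genes). Gcgr, the glucagon receptor, rose 2.99-fold (10.08, 10.55, 10.46 and 10.34 against 8.84, 9.07, 8.66 and 8.54; adjusted p = 2.98e-06), and Ppp1r3b, which targets a phosphatase to glycogen, 2.13-fold (adjusted p = 0.00226). Tat, the tyrosine aminotransferase that glucocorticoids and glucagon induce, fell 1.51-fold (adjusted p = 0.038; up to 0.131 when MeUAB30 1 or 2 or Control 1, 2 or 4 was omitted). The 8 rising genes were 4 without any 1 of MeUAB30 3 or 4 or Control 4, and 5 without MeUAB30 2.

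**Figure D3:**
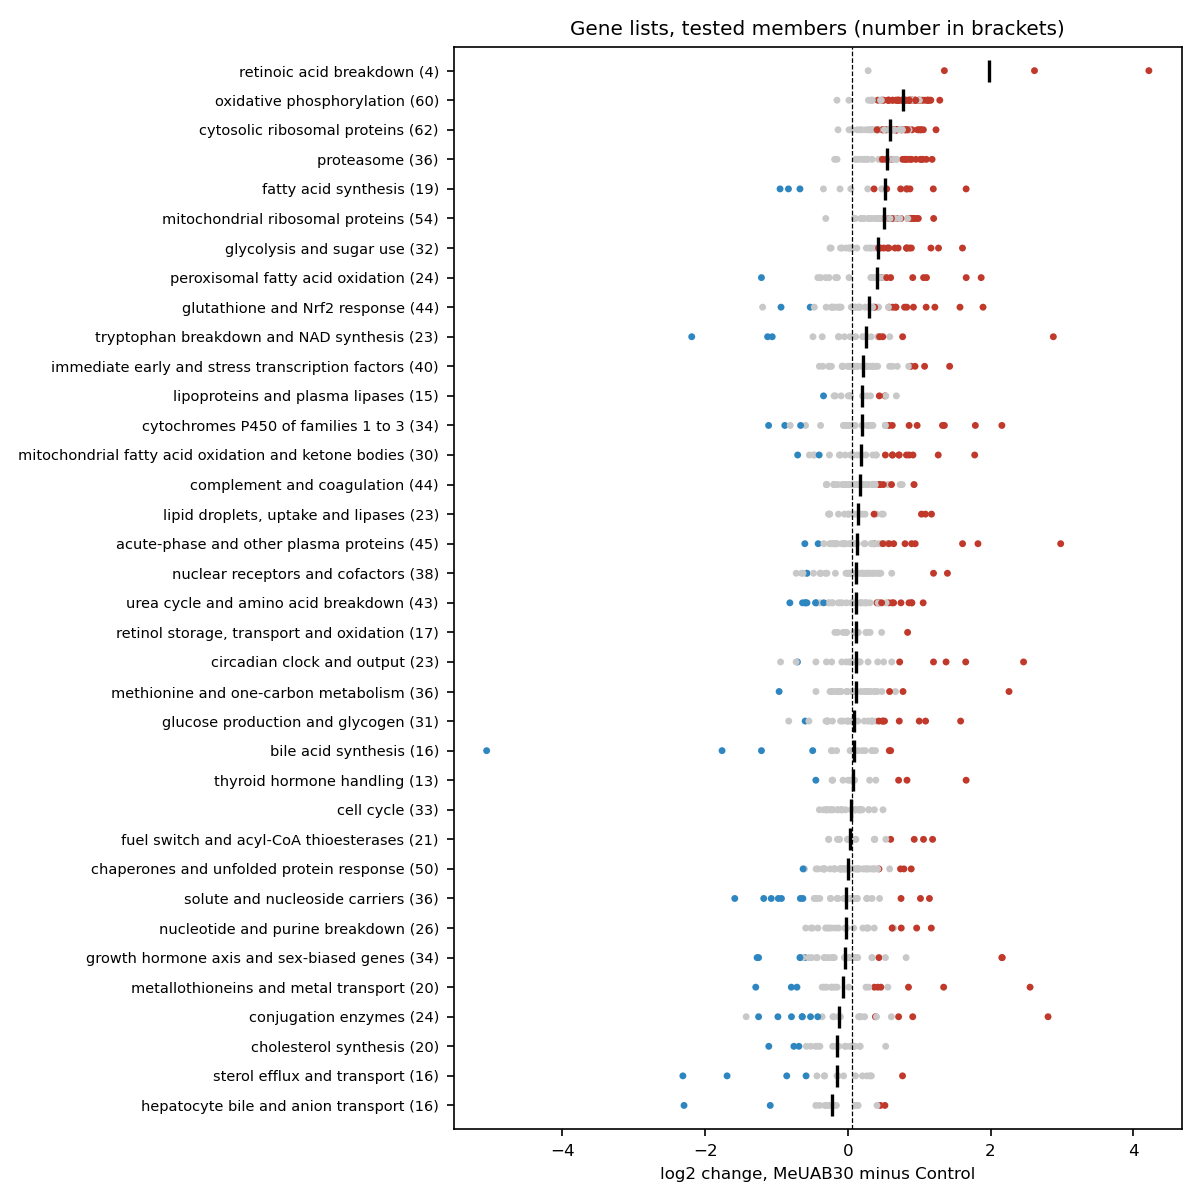
Log2 change (x axis, MeUAB30 minus Control) of the tested members of 36 gene lists (rows, number tested in brackets), each point a gene, red for rose, blue for fell and grey for did not pass; the black tick is the list's median and the dashed line the median of all genes, 0.06. The rows of oxidative phosphorylation, ribosomal proteins and proteasome lie to the right of the line as a body with no blue point, and the bile acid and sterol rows reach far to the left.

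By count, the lists with the most rising genes were those of respiration, ribosomes and the proteasome. Lists differ in length, and by share of tested members glycolysis and sugar use (46.9%) stood above the proteasome (44.4%) and mitochondrial ribosomal proteins (35.2%). Of 60 oxidative phosphorylation genes 45 rose and none fell (median 0.78), against 7.88% of all genes that rose and 14.5% of those in the brightest bin by Control level. Ndufb2, of complex I, read 10.01, 10.46, 10.22 and 10.34 with MeUAB30 and 8.8, 9.53, 9.14 and 8.9 in Control and rose 2.24-fold (adjusted p = 0.000396). Sdhd, of complex II, rose 1.83-fold (adjusted p = 0.000483). Both genes were separated between the groups, and the members that passed came from all 5 complexes.

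Cytosolic ribosomal protein genes rose in 31 of 62 cases (median 0.60), mitochondrial ribosomal protein genes in 19 of 54 (median 0.51) and proteasome genes in 16 of 36 (median 0.55), and in these lists none fell. Rps28 rose 2.03-fold (adjusted p = 0.00247), Mrpl55 2.30-fold (adjusted p = 0.00211) and Psma1, a core subunit of the proteasome, 1.94-fold (adjusted p = 0.00211). Psmb8, a subunit of the immunoproteasome, which interferon induces, rose 2.14-fold, from 8.63, 9.21, 8.57 and 8.69 to 9.93, 9.79, 10.15 and 9.63 (adjusted p = 0.00193). The MeUAB30 arrays of all 4 genes lay above the Controls.

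The 4 lists differed in level among Control arrays as well. Relative to the Control mean, the mean log2 level of the oxidative phosphorylation list was 0.58, 0.75, 0.75 and 0.87 on the MeUAB30 arrays and -0.07, 0.32, -0.13 and -0.12 on the Control arrays, with Control 2 the highest. That of the mitochondrial ribosomal list was 0.26, 0.57, 0.61 and 0.68 against -0.01, 0.29, -0.22 and -0.06, so MeUAB30 1 lay below Control 2. The intensity range differed along with these levels, and its part in the result was not tested; with the range as a covariate 48 oxidative phosphorylation, 39 cytosolic ribosomal, 22 mitochondrial ribosomal and 22 proteasome genes rose, with 1 falling in each of the last 2 lists, and without the 4 arrays of narrowest range 53, 43, 35 and 24. Single arrays moved the smaller counts: cytosolic ribosomal genes were 12 without Control 4, 16, 17 and 20 without MeUAB30 3, 2 and 4, mitochondrial ribosomal genes 12 without any 1 of MeUAB30 2 or Control 1 or 4, and proteasome genes 8 without MeUAB30 4 or Control 4.

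**Figure D4:**
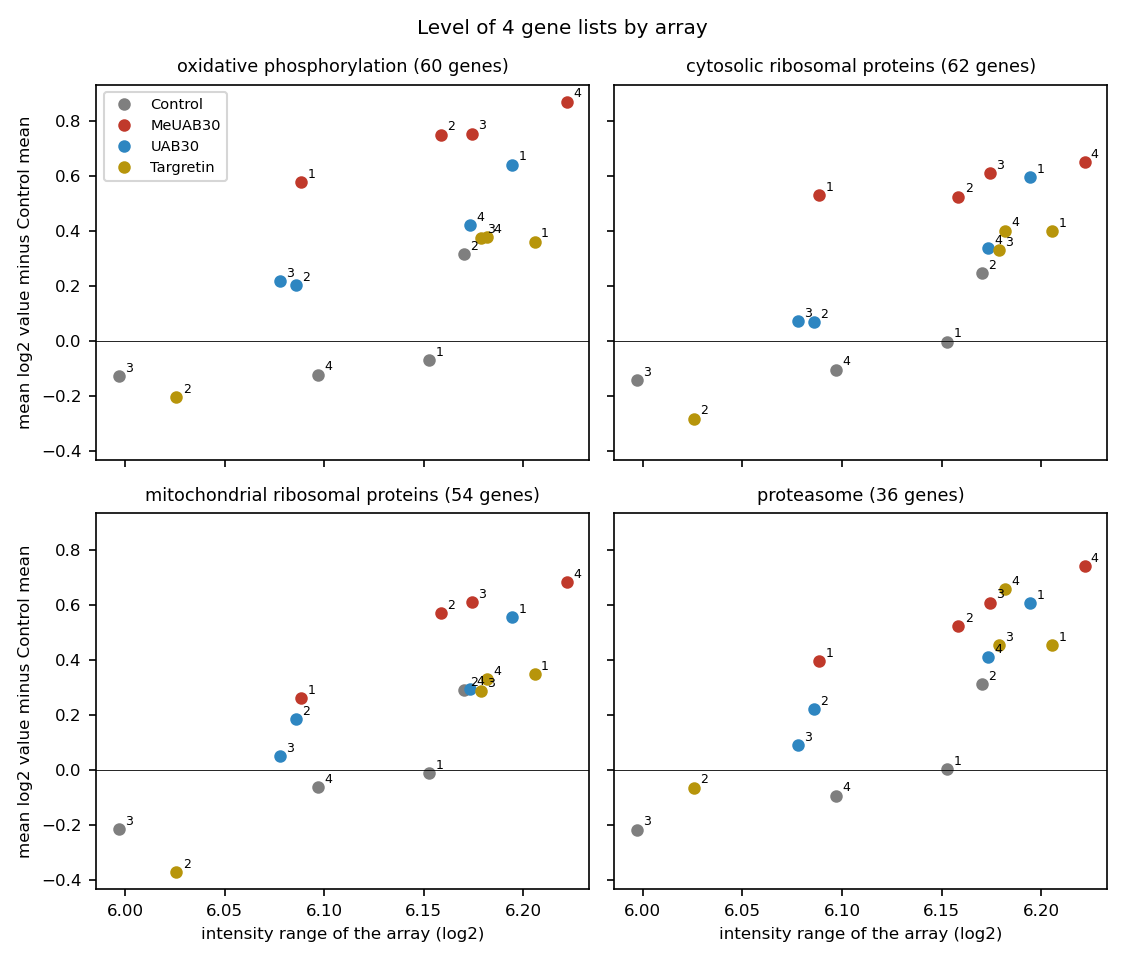
Mean log2 level of 4 gene lists on each of the 16 arrays, relative to the Control mean (y axis), against the intensity range of the array (x axis, log2, 99th percentile over median); colours are diets and numerals are array numbers. In oxidative phosphorylation, cytosolic ribosomal proteins and the proteasome all 4 MeUAB30 arrays exceed all 4 Control arrays. In mitochondrial ribosomal proteins MeUAB30 1 lies below Control 2. In every panel but that of the proteasome the lowest pair is Targretin 2 and Control 3, the arrays of narrowest range.

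Of 50 chaperone and unfolded protein response genes 4 rose and 1 fell, a share of 10% beside 9.89% of all genes. They included Herpud1 of endoplasmic reticulum-associated degradation (1.72-fold higher, adjusted p = 0.00141), the small heat shock protein Hspb1 (1.85-fold higher, adjusted p = 0.00253) and Edem1, which marks misfolded glycoproteins for removal (1.54-fold lower, adjusted p = 0.0101); the 4 were 2 without any 1 of MeUAB30 2, 3 or 4 or Control 1, 3 or 4, and 4 genes fell in place of 1 without Control 3. None of 33 cell cycle genes passed in limma, though 3 were higher and 1 lower at an unadjusted p under 0.05; 1 rose without MeUAB30 1 and 1 fell without Control 3. When the range of intensity entered the model as a covariate 10 chaperone genes fell, and 3 cell cycle genes rose and 6 fell. Of 26 nucleotide and purine genes 5 rose (3 without MeUAB30 2) and none fell (4 fell without Control 3 and 1 without MeUAB30 4). The share that rose was 19.2%, against 7.88% of all genes, with the purine salvage enzymes Hprt1 and Aprt 2.25-fold and 1.95-fold higher (adjusted p = 0.00129 and 0.000908).

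Genes of tryptophan breakdown and NAD synthesis changed in both directions, with 4 of 23 higher and 3 lower (30.4% called, against 9.89% of all genes). Acmsd, the decarboxylase that sends the pathway away from NAD, read 11.33, 11.37, 11.65 and 10.87 with MeUAB30 and 8.58, 8.51, 8.13 and 8.48 in Control. All 13 probe sets were higher, and it rose 7.36-fold (SE 0.19, adjusted p = 1.12e-07). Haao, which makes the substrate of Acmsd, rose 1.70-fold (adjusted p = 0.00242). Ddc, the decarboxylase that makes dopamine and serotonin, read 7.08, 7.1, 7.16 and 7.89 with MeUAB30 and 9.48, 9.81, 9.35 and 9.35 in Control. It fell 4.55-fold on all 15 probe sets (SE 0.19, adjusted p = 2.17e-06), and MeUAB30 4 stood above the other 3.

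Aldehyde oxidase Aox1 fell 2.08-fold (adjusted p = 0.000264) and Ido2, an enzyme of the first step, fell by 1.12 (adjusted p = 0.000527). The 4 that rose were 2 without any 1 of MeUAB30 2, 3 or 4 or Control 4, 7 without MeUAB30 1 and 8 without Control 2.

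Methionine and one-carbon genes rose in 3 of 36 cases (6 without Control 2) and fell in 1 (2 without Control 3), so that 11.1% were called beside 9.89% of all genes. Gnmt, which uses up S-adenosylmethionine to methylate glycine and is a known target of retinoids, read 11.69, 11.86, 11.83 and 12.02 with MeUAB30 and 9.33, 10.11, 9.54 and 9.39 in Control. All MeUAB30 arrays were higher, and the gene rose 4.79-fold (SE 0.22, adjusted p = 5.34e-06). Sardh, which oxidises the sarcosine that Gnmt makes, rose 1.71-fold (adjusted p = 0.000242), and Csad, of taurine synthesis, fell 1.95-fold (adjusted p = 0.00853).

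Genes of amino acid breakdown moved both ways. Of 43 genes of the urea cycle and amino acid breakdown 11 rose (7 without MeUAB30 4) and 8 fell, a share of 44.2% called against 9.89% of all genes. The liver glutaminase Gls2 rose 2.08-fold (11.41, 11.69, 11.41 and 11.6 against 10.24, 10.85, 10.41 and 10.38; adjusted p = 0.000147) and alanine transaminase Gpt 1.86-fold (adjusted p = 0.00141). Cps1, which brings ammonia into the urea cycle, fell 1.49-fold from a bright and narrow Control level of 13.22 to 13.37 to between 12.66 and 12.74 (adjusted p = 0.00136), and the aspartate transaminase Got1 fell 1.76-fold (adjusted p = 0.00379). The 8 that fell were 4 without MeUAB30 2 or Control 1 and 5 without MeUAB30 3 or Control 4.

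Xenobiotic P450 genes rose in 8 of 34 cases (5 without Control 1 or Control 3) and fell in 3, a share of 32.4% called against 9.89% of all genes. Por, the reductase that feeds electrons to all microsomal P450 enzymes, rose 1.96-fold (9.77, 10.19, 10.62 and 9.99 against 9.51, 9.14, 9.0 and 9.02; adjusted p = 0.0015). Cyp2c13, a male-specific steroid hydroxylase of rat liver, read 7.91, 7.69, 9.64 and 9.89 with MeUAB30 and 6.56, 6.99, 6.16 and 6.78 in Control. MeUAB30 3 and 4 stood well above 1 and 2, the fitted rise was 4.47-fold (adjusted p = 0.00193), and it was lost when only probe sets above the 90th percentile were used (log2 change 0.22, adjusted p = 0.466), while with no filter on brightness it was larger (2.97, adjusted p = 0.000448). Cyp2a1 fell 2.16-fold (adjusted p = 4.41e-05) and Cyp1a2, an aryl hydrocarbon receptor target, 1.84-fold (adjusted p = 0.000166), while Cyp1a1 was near the brightness threshold in both groups and did not pass (log2 change -0.59, adjusted p = 0.381).

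Conjugation enzymes were split, with 4 of 24 rising and 7 falling (45.8% called, against 9.89% of all genes). Sult1c3, a sulfotransferase, read 11.04, 11.25, 11.62 and 11.57 with MeUAB30 and 8.78, 9.28, 8.12 and 8.08 in Control. The groups were apart by more than the whole spread of either, and the rise was 7.00-fold (SE 0.29, adjusted p = 1.68e-05). Sult2a1, the sulfotransferase of bile acids and dehydroepiandrosterone, fell 2.38-fold (10.55, 9.75, 11.28 and 11.27 against 12.17, 12.1, 11.83 and 11.74; adjusted p = 0.0114). Ugt2a3 rose 1.88-fold (adjusted p = 0.00418), and Papss2, which makes the sulfate donor, fell 1.56-fold (adjusted p = 0.00676). Ugt1a1, the bilirubin glucuronidating enzyme, fell 1.44-fold on 1 probe set (adjusted p = 0.0102). Rising members were 2 without any 1 of MeUAB30 2, 3 or 4 or Control 1 or 4, and falling members 3 without any 1 of MeUAB30 2 or 3 or Control 1 or 2.

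Of 44 glutathione and Nrf2 genes 12 rose and 2 fell (31.8% called, against 9.89% of all genes). Nqo1, the quinone reductase that Nrf2 induces, rose 2.97-fold (9.33, 9.79, 9.47 and 9.39 against 7.84, 8.18, 7.96 and 7.71; adjusted p = 0.000147), and Akr1b10, an aldose reductase relative that reduces retinaldehyde, rose 3.72-fold (9.76, 11.27, 9.8 and 9.59 against 8.35, 8.31, 8.04 and 8.14; adjusted p = 0.000403). Akr1b10 depended on the probe sets used, and from those above the 90th percentile its log2 change was 0.54 (adjusted p = 0.033) in place of 1.90. Gclc, the rate-limiting enzyme of glutathione synthesis and another Nrf2 target, fell 1.91-fold (adjusted p = 0.0238), with MeUAB30 4 at 9.45 level with Control 3 at 9.44, and Gstm1 fell 1.44-fold (adjusted p = 0.0196). Gclc did not pass with MeUAB30 1, 2 or 3 or Control 1 or 4 omitted, nor Gstm1 with MeUAB30 2 or 3 or Control 2 omitted (largest adjusted p 0.0769 and 0.0718). The 12 were 7 without any 1 of MeUAB30 2 or 3 or Control 1 or 4 and 6 without MeUAB30 4.

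Metal-binding and metal-carrying genes rose in 6 of 20 cases and fell in 3 (45% called, against 9.89% of all genes). Mt2A, a metallothionein, read 13.2, 11.87, 12.52 and 12.1 with MeUAB30 and 9.59, 10.35, 9.33 and 10.19 in Control. The spread was wide in both groups but they did not meet, and the rise was 5.87-fold (SE 0.42, adjusted p = 0.00103). Its neighbour Mt1 rose 2.54-fold (adjusted p = 0.0349; up to 0.0928 with any array other than Control 2 omitted). The zinc importer Slc39a4 rose 1.80-fold, and the copper exporter Atp7b and the iron exporter Slc40a1 fell 1.64-fold and 1.73-fold (adjusted p = 0.00716, 0.00242 and 0.00759). The 6 rising genes were 3 without any 1 of MeUAB30 1 or 4 or Control 1 and 2 without any 1 of MeUAB30 2 or 3 or Control 4.

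Of 38 nuclear receptors and cofactors 2 rose and 1 fell, namely Nr0b2, Nr1d1 and Nr5a2, a share of 7.89% against 9.89% of all genes. These counts moved with single arrays: 7 fell without Control 3, 2 without MeUAB30 4 and none without any 1 of MeUAB30 1, 2 or 3 or Control 1, 2 or 4, and 1 rose without any 1 of MeUAB30 3 or 4 or Control 1, 3 or 4. Without the 4 arrays of narrowest range 7 rose and 6 fell, and with the range as a covariate 5 rose and 11 fell. Nr1d1, a heme receptor of the circadian clock, rose 2.30-fold (9.42, 8.58, 9.93 and 9.19 against 7.96, 8.21, 8.27 and 7.87; adjusted p = 0.0413), and did not pass with any array other than MeUAB30 2 omitted (largest adjusted p 0.144). Among 23 clock genes 5 rose and 1 fell (3 fell without Control 3), a share of 26.1% called against 9.89% of all genes. Bhlhe40, a repressor within the clock, rose 2.60-fold (10.68, 11.07, 10.67 and 10.65 against 9.75, 9.19, 9.22 and 9.4; adjusted p = 0.000166). Rgs16, a brake on G protein signalling with a daily rhythm, read 11.52, 12.17, 10.22 and 9.92 with MeUAB30 and 8.95, 8.05, 8.32 and 8.66 in Control.

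MeUAB30 1 and 2 were the higher pair, all 4 exceeded the Controls, and Rgs16 rose 5.51-fold (SE 0.40, adjusted p = 0.000897). Clock itself fell 1.63-fold (adjusted p = 0.0362; up to 0.133 when MeUAB30 1, 2 or 3 or Control 1, 2 or 4 was omitted), and the 5 rising clock genes were 3 without any 1 of MeUAB30 3 or 4 or Control 3 or 4. The hour at which livers were taken is not given in the sources used here, and its part in these differences was not tested. Of 40 immediate early and stress transcription factor genes 4 rose and none fell, a share of 10% beside 9.89% of all genes, with Egr1 2.69-fold (8.83, 9.27, 8.8 and 9.33 against 7.64, 7.65, 7.37 and 7.86; adjusted p = 3.37e-05) and Junb 2.11-fold higher (adjusted p = 0.00197). Nupr1, a stress-induced chromatin protein, rose 4.77-fold (9.89, 10.76, 10.17 and 9.83 against 7.72, 8.48, 7.67 and 7.77; adjusted p = 3.79e-05).

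Growth hormone-dependent and sex-biased genes moved in both directions, 3 of 34 higher and 5 lower (23.5% called, against 9.89% of all genes). Igfbp2, a binding protein that restrains insulin-like growth factors, read 10.2, 10.57, 10.05 and 9.9 with MeUAB30 and 8.25, 7.78, 8.04 and 8.01 in Control. It was separated on every array and rose 4.48-fold (SE 0.17, adjusted p = 5.93e-07), while Igf1 did not pass (log2 change -0.23, adjusted p = 0.300) except with the intensity range as a covariate (-0.31, adjusted p = 0.021). Cux2, a female-biased repressor in rodent liver, fell 1.52-fold (adjusted p = 0.00358), and Cyp17a1, the steroid 17-alpha-hydroxylase, fell 2.41-fold (5.69, 6.4, 6.09 and 6.19 against 7.4, 7.68, 7.03 and 7.35; adjusted p = 0.00396). The MeUAB30 mean of Cyp17a1, 6.09, sat just over the brightness threshold, so the size of its decrease is uncertain. Esr1, the estrogen receptor, missed an adjusted p of 0.05 (log2 change -0.63, adjusted p = 0.0631). It passed under 6 of the 18 alternatives, omission of MeUAB30 4 among them (-0.75, adjusted p = 0.0494). The 5 falling genes were 3 without any 1 of MeUAB30 2 or 3 or Control 1 or 4. Of 13 thyroid hormone genes 3 rose and 1 fell (30.8% called, against 9.89% of all genes). Besides Thrsp the malic enzyme Me1 rose 1.78-fold (adjusted p = 0.0124), and the thyroid hormone and aromatic amino acid carrier Slc16a10 fell 1.36-fold (adjusted p = 0.038; up to 0.135 when MeUAB30 3 or 4 or Control 1 or 4 was omitted).

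Carriers fell more often than they rose, 7 against 3 of 36 (27.8% called, against 9.89% of all genes). The phosphate carrier Slc34a2 fell 2.26-fold (adjusted p = 0.000787) and the sulfate carrier Slc13a4 1.96-fold (7.43, 7.53, 7.52 and 8.15 against 8.61, 8.91, 8.54 and 8.47; adjusted p = 0.00282). Slc25a10, the mitochondrial dicarboxylate carrier, rose 2.03-fold (adjusted p = 0.000138), and Slc28a2, a purine nucleoside carrier, 1.68-fold (adjusted p = 0.00379). Large decreases were seen in Slc25a30, a mitochondrial carrier (7.78, 7.94, 8.25 and 7.16 against 10.18, 8.78, 9.08 and 9.42; 3.00-fold lower, adjusted p = 0.0114), and Slc1a2, a glutamate carrier of hepatocytes around the central vein (2.48-fold lower, adjusted p = 0.00217).

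Of 45 acute-phase and other plasma proteins 10 rose and 2 fell (26.7% called, against 9.89% of all genes). That background is not matched for brightness: in the brightest bin by Control level 14.5% of genes rose and 5.26% fell. Orm1, an acute-phase glycoprotein, rose 3.54-fold (11.84, 12.16, 12.04 and 12.23 against 10.13, 10.88, 9.37 and 10.58; adjusted p = 0.000403), and Fgl1, a fibrinogen-like hepatokine, 3.05-fold (11.91, 11.95, 11.73 and 11.92 against 10.34, 10.71, 9.73 and 10.29; adjusted p = 0.000205). In both the Control arrays were more scattered than the MeUAB30 arrays. Pzp, a protease-trapping plasma protein, and the carboxylesterase Ces1c fell 1.33-fold and 1.52-fold (adjusted p = 0.0136 and 0.0114). Of 44 complement and coagulation genes 6 rose and none fell (13.6%), among them the terminal component C9 (1.37-fold, adjusted p = 0.00855) and Hgfac, the activator of hepatocyte growth factor (1.53-fold, adjusted p = 0.00949); the 6 were 3 without any 1 of MeUAB30 1 or 3 or Control 1, 3 or 4.

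Spink1, a trypsin inhibitor that liver makes in the acute phase, read 7.78, 7.65, 7.11 and 8.36 with MeUAB30 and 4.7, 5.16, 3.87 and 5.25 in Control. The Control mean of 4.74 is under the brightness threshold, so the rise was at least 3.28-fold (adjusted p = 0.000496); the fitted log2 change was 2.98, and 2.31 with no filter on brightness (adjusted p = 0.0084). Spink1 is also made by pancreatic acinar cells, and the other 11 tested acinar genes had log2 changes between -0.17 and 0.07 and did not pass.

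Other genes among the 20 largest changes in each direction belonged to none of these groups. Tmem176b, a membrane protein of immune and liver cells, rose 3.41-fold, Ifitm3, an interferon-induced antiviral membrane protein, 3.41-fold, and the cytoskeletal adaptor Pdlim1 3.23-fold (adjusted p = 4.03e-05, 5.55e-05 and 0.000353). Gria3, a glutamate receptor subunit, was dim in Control and rose at least 2.79-fold (adjusted p = 3.32e-05); its fitted log2 change was 1.69, and 1.08 from probe sets above the 90th percentile (adjusted p = 0.000592). Plppr1, a lipid phosphatase-related membrane protein known from neurons, read 5.68, 5.1, 5.4 and 5.02 with MeUAB30 and 8.53, 8.63, 7.64 and 8.47 in Control. It dropped under the brightness threshold on every MeUAB30 array and was at least 4.95-fold lower (adjusted p = 4e-06).

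Hyal1, the lysosomal hyaluronidase, read 8.39, 8.39, 8.43 and 8.89 with MeUAB30 and 10.72, 10.56, 10.18 and 10.33 in Control, and fell 3.79-fold (SE 0.15, adjusted p = 5.93e-07). The prostaglandin E2 receptor Ptger3 fell 2.68-fold (adjusted p = 6.85e-05), the transporter Abca8a 2.59-fold on all 40 probe sets (adjusted p = 0.000264), the reelin adaptor Dab1 2.51-fold (adjusted p = 0.000114), the ubiquitin ligase Rnf125 2.39-fold (adjusted p = 0.00137) and Gas6, a ligand of TAM receptors, 2.38-fold (adjusted p = 9.88e-05). The kinase anchor Akap5, dim with MeUAB30, was at least 2.01-fold lower (adjusted p = 0.00199). Nrep fell 2.60-fold (adjusted p = 0.0149, but up to 0.0572 with Control 1 or Control 4 omitted).

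Markers of the liver's cell types were read beside these results. Over all genes 9.89% passed, 7.88% higher and 2.01% lower, and in the brightest bin by Control level 14.5% rose and 5.26% fell. By list, 30% of hepatocyte, 46.2% of pericentral, 40% of periportal, 18.2% of stellate, 16.7% of adipocyte and 16.7% of erythroid markers passed. In lists this short a single gene moves the share widely. Of 10 hepatocyte markers 3 passed: Asgr1 rose and Cps1 and Apob fell (1 fell with any array but Control 3 omitted), and Alb, the albumin gene, changed by -0.19 (adjusted p = 0.263). Their summed level was lower on every MeUAB30 array than on any Control array, 89580 to 92890 against 96470 to 102600. A sum of linear intensities is weighted toward bright genes. It includes Cps1 and Apob, whose log2 means were 13.27 and 13.25 in Control and 12.7 and 12.91 with MeUAB30. The lower sum is therefore not separate from those decreases. Of 13 pericentral markers 1, Rhbg, rose (none without any 1 of MeUAB30 2 or 3 or Control 3 or 4). The 5 that fell were Cyp8b1, Cyp1a2, Slc1a2, Slc1a4 and Cyp7a1, and 5 of the 13 changes were positive. Of 15 periportal markers 3 rose and 3 fell (the 3 that rose were 1 without MeUAB30 2 or Control 4). None of the 14 Kupffer cell, 9 sinusoidal endothelial, 7 cholangiocyte, 8 lymphocyte or 7 neutrophil markers passed in limma, with 8, 1, 0, 1 and 1 of them higher and none lower at an unadjusted p under 0.05. Without Control 2, however, 6 of the 14 Kupffer cell markers rose, and without Control 3 a single neutrophil marker did. The Kupffer list had a median of 0.47 and summed levels of 6114 to 7502 with MeUAB30 against 4138 to 7610 in Control, which overlapped. Stellate markers had 2 of 11 higher, Lrat and Vim (1 of 11 with any array but Control 1 or 2 omitted), adipocyte markers 1 of 6, Cidec, and of 6 erythroid markers 1 was lower. The part of cell composition in the changes above was not tested.

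UAB30 was fed at the same dose, so the response to both compounds could be compared directly in 1 pair. Of 12156 genes 169 differed between MeUAB30 and UAB30 (1.39%; limma, adjusted over all genes), 85 higher with MeUAB30 and 84 lower; the count was 89 without MeUAB30 3 and 91 without MeUAB30 2. The genes below were named for their change against Control on the same MeUAB30 arrays, which favours a difference from UAB30 in that direction, so how many of them differed is not read as a result. Cyp26a1 was higher with MeUAB30 by 3.57 on the log2 scale (95% interval 3.06 to 4.08, adjusted p = 1.17e-07), Cyp26b1 by 2.86 (2.27 to 3.45, adjusted p = 1.26e-05) and Acmsd by 2.69 (2.27 to 3.09, adjusted p = 2.61e-07). Lower with MeUAB30 were Cyp8b1 by -3.78 (-4.47 to -3.09, adjusted p = 2.88e-06), Abcb4 by -2.04 (-2.39 to -1.70, adjusted p = 1.22e-06) and Ddc by -1.86 (-2.26 to -1.46, adjusted p = 2.36e-05). Abcg5, dim with MeUAB30, was at least 4.62-fold lower than with UAB30 (adjusted p = 0.000708).

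Cyp1a1 and Cyp1a2, targets of the aryl hydrocarbon receptor, were lower with MeUAB30 than with UAB30. Cyp1a1 read 5.63, 5.0, 5.47 and 5.91 with MeUAB30 and 11.43, 11.94, 12.01 and 11.98 with UAB30. The MeUAB30 arrays were all under the brightness threshold, so Cyp1a1 was at least 56.8-fold lower (adjusted p = 3.29e-08), and its mean change against Control was -0.59 with MeUAB30 and 5.75 with UAB30. Cyp1a2 differed by -1.87 (-2.12 to -1.62, adjusted p = 4.41e-08). Nr0b2 and Nr1d1 were higher with MeUAB30 by 1.57 and 2.52 (adjusted p = 5.14e-05 and 0.000708) and Lrat by 1.39 (adjusted p = 0.000334).

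For other genes no difference between the analogs passed. Cyp7a1 differed by 0.28 (-0.53 to 1.10, adjusted p = 0.878), Egr1 by -0.06 (-0.39 to 0.28, adjusted p = 0.952), Nqo1 by 0.24 (-0.19 to 0.67, adjusted p = 0.753), Bhlhe40 by 0.31 (-0.07 to 0.70, adjusted p = 0.574) and Rgs16 by 0.56 (-0.28 to 1.40, adjusted p = 0.677). A difference that did not pass does not show that the analogs act alike on any of these genes. The intervals of Cyp7a1 and Rgs16 reach past 1 log2 unit, and those of Nqo1 and Bhlhe40 reach 0.67 and 0.70. Targretin was fed at a lower dose, and values are given side by side with no comparison: against the shared Control arrays Cyp8b1 changed by -5.06 with MeUAB30 and -5.14 with Targretin, Mt2A by 2.55 and -1.47, and Lrat by 0.84 and -0.75.

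**Figure D5:**
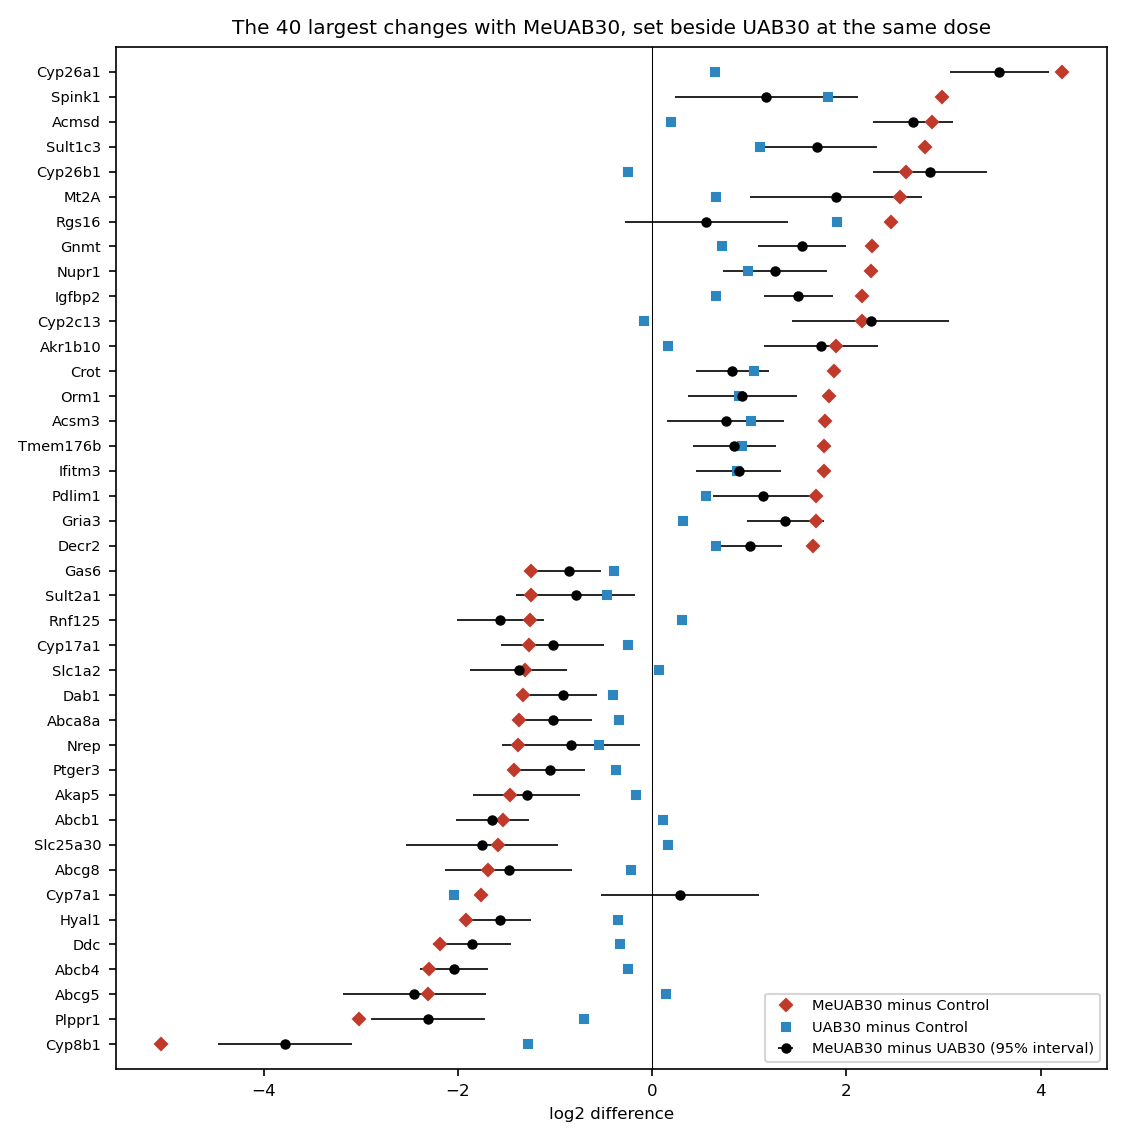
The 40 largest changes with MeUAB30 (rows): log2 change against Control with MeUAB30 (red diamonds) and with UAB30 (blue squares), and the difference of the compounds with its 95% interval (black). For Cyp26a1, Acmsd, Cyp26b1, Cyp8b1 and Abcb4 the interval lies far from 0, whereas for Cyp7a1 and Rgs16 it crosses 0; the intervals are not adjusted for the number of genes.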

How the data were processed

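Liver RNA was biotin-labelled and hybridised to 16 exon arrays, per the labels' protocols. The authors deposited 1 linear intensity per probe set and array (887828 probe sets, array medians 22.2 to 23.8); how probes were summarised and normalized is not given in the sources used here, and the submitters' processing notes name build rn4. Exactly 1 symbol belonged to 177688 probe sets in the platform annotation, and 14903 symbols, updated through RefSeq where needed, gave 14839 genes. Probe sets with a mean log2(intensity + 1) at or above the 75th percentile of all (6.01) were kept, 103692 in number, and summarised per gene by median polish. The pseudocount of 1 shrinks the changes of dim genes. A group mean under 6.01 is called dim, and a fold from or to it was bounded by setting lower levels to 6.01. Intensities hold no counts, and precision is set by how many arrays there are (median SE of a log2 difference 0.17); correlations between arrays were 0.913 to 0.960.

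Limma 3.58.1 estimated a mean per diet over the 16 arrays in R 4.3.3 (with the data.table package, 1.17.8), with Benjamini-Hochberg adjustment over 12156 genes per contrast and a threshold of 0.05; every adjusted p in the text is from that fit or a repeat of it. The test was tried on simulated data first. Figures used Python 3.11.15 and matplotlib 3.10.9.

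The members, the 36 pathway lists, the 12 marker lists and the naming rule were chosen with earlier results of these data known, so no list is independent evidence. The text names the 20 genes that rose most and the 20 that fell most among called genes with at least 2 kept probe sets and groups that do not overlap, from each pathway list up to 2 rising and 2 falling genes of smallest adjusted p, and 36 fixed genes, 34 of which were tested (not Cyp2b1 and Cyp3a9). Akr1d1, Stard5, Msmo1, Elovl2, Eci2, Ech1, Acaa1b, Ehhadh, Ido2, Cyp26c1, Alb, Asgr1, Vim, Rhbg and Slc1a4 were named after their values were seen. The neighbours in the closing observations were named in the same way. Promoter windows and neighbour order came from RefSeq (GRCr8). Alternatives were another pseudocount, 2 other filters, the mean of probe sets, quantile normalization, array weights, the intensity range as a covariate, the 2 groups alone, a replicate block, and arrays left out.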

Additional observations from a re-analysis of the deposited data

Results flagged for a closer look

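In each named gene the 4 values of a diet were checked for a single array far from the other 3, and 19 of 276 such groups were flagged; chance flags about 1 in 20. Control 2 was the array apart in 5 of them, high for Nupr1 (8.48), Slc10a1 (11.79), Cyp1a2 (12.2), Gstm1 (11.55) and Mrpl55 (7.59). Control 3 was apart in 5, low for Plppr1 (7.64), Abca8a (9.36), Rnf125 (9.73), Rarb (8.95) and Pdk4 (10.02). MeUAB30 1 was apart in 4, low for Slc25a10 (10.38), Mrpl55 (8.04) and Rarb (9.08) and high for Pzp (12.93). MeUAB30 4 was the high array for Ddc (7.89), Hyal1 (8.89) and Slc13a4 (8.15), and MeUAB30 2 for Akr1b10 (11.27) and Bhlhe40 (11.07). Control 3 and MeUAB30 1 are the arrays of narrowest intensity range in their groups; whether that range set these values was not tested. The genes named here kept the direction of their change without the array in question.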

How the results depend on the processing

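The counts depended most on how unequal arrays were handled. With array weights 2771 genes were called against Control, 64.4% of them higher, and 1337 against UAB30; adjusting for intensity range gave 3020, 46.8% and 716, and dropping the 4 arrays of narrowest range 2446, 61.3% and 338; the cause was not tested. Leaving out 1 array gave 634 (Control 4) to 1346 (Control 2) genes, 62.9% (Control 3) to 86.6% (Control 2) higher, and 89 (MeUAB30 3) to 208 (Control 3) against UAB30. Of the 1202 genes 630 were called without Control 4 and 1194 with array weights. The replicate numbers do not pair the arrays (correlations of same-numbered deviations -0.23, -0.16, -0.20 and 0.18), and with a replicate block 1000 genes were called, 78.7% of them higher, and 136 against UAB30. The other alternatives (quantile normalization, pseudocount 16, no filter, the 90th percentile filter, the mean of probe sets and the 2 groups alone) kept these counts within 1.5 times. Of 124 called named genes 103 kept their call under all 18 alternatives, 21 lost it under at least 1, and none of the 138 named genes changed sign while called. Beyond the losses given with each gene, Fabp2 (adjusted p = 0.0625), Nr1d1, Slc22a7, Idi1, Clock and Mt1 were not called without a filter, and Slc10a1, Slc22a7, Slc22a5, Acsl4, Apob, Tat and Slc16a10 were not called in the 2 groups alone, with the block or both. Acsl4, Clock, Idi1, Nr5a2, Slc22a7 and Tat were not called by the mean of probe sets, nor Nr1d1 and Tat without the 4 arrays of narrowest range. Calls were also gained: Ppara and Esr1 passed under 6 alternatives each, Pnpla3 under 5, Rarb and Abcb11 under 2 each and Igf1 under 1. Of genes called against Control 17 were dim there and 14 dim with MeUAB30, which limits the size of their changes but not their direction; 65 were read by a single probe set.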

Other observations

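Some neighbouring genes changed in the same direction. Among 12091 pairs of tested genes next to each other on a chromosome (RefSeq order, assembly GRCr8), 109 were called in the same direction, 97 higher and 12 lower; these pairs were listed after their values were seen and no test was made of the number. With 7.88% of all genes higher and 2.01% lower, many such pairs arise with no relation between neighbours, so the number is not read as a result. Several are close relatives whose probe sets may read each other: Abcg8 and Abcg5 (-1.69 and -2.31), Abcb4 and Abcb1b (-2.29 and -1.09), Fads2 and Fads1 (-0.67 and -0.95), the aldehyde oxidases Aox1 and Aox3 (-1.06 and -1.13), Abca8a and Abca6 (-1.37 and -1.04), Mt1 and Mt2A (1.34 and 2.55), Tmem176b and Tmem176a (1.77 and 1.27), the enoyl-CoA isomerases Eci2 and Eci3 (1.06 and 1.15), Ifitm2 and Ifitm3 (0.95 and 1.77) and Cyp2c13 and Cyp2c22 (2.16 and 1.35). Others are unrelated in sequence family. Ackr2, a chemokine-scavenging receptor, fell by 0.89 beside Cyp8b1 at -5.06. Slc25a10 and the glucagon receptor gene Gcgr rose by 1.02 and 1.58, and Pdlim1 rose by 1.69 beside Cyp2c22 at 1.35.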
